A study of Mus musculus with 25 samples.

Results

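Angiotensinogen (Agt) and 5 genes that process or sense its products were followed through a hypothalamic ribosome-capture experiment and a brain endothelial cell line. The 6 genes were taken as a list by symbol, and the list was chosen by the level of Agt in captured RNA, noted as lower after a high-fat diet. That diet difference in captured RNA is therefore given as a description without a test, and so are the values of the other 5 genes in it. All 6 genes were found by symbol in both tables, of 45706 genes in the hypothalamic table and 44674 in the cell line table.

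In the angiotensin system the secreted protein angiotensinogen is cut by renin to angiotensin I, which angiotensin-converting enzyme (Ace) trims to the active peptide angiotensin II. Angiotensin II acts mainly through the receptor encoded in mice by Agtr1a, and aminopeptidases shorten it further. In the brain astrocytes are the main source of Agt mRNA, and the local peptides take part in control of thirst, blood pressure and vasopressin release.

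The hypothalamic libraries came from 12-week-old mice that carried 1 copy each of Slco1c1-CreERT2, a Cre recombinase switched on by tamoxifen and driven by the promoter of a thyroid hormone transporter gene, and of a transgene at ROSA26 from which Cre releases ribosomal protein L10a fused to GFP. All groups share both alleles and tamoxifen, given 3 weeks before the diet. Mice then ate a high-fat diet (HFD) or a control diet (CD) for 3 days. Tagged ribosomes were pulled down with antibodies against GFP (bacTRAP). The groups were HFD IP and CD IP, holding the RNA bound to tagged ribosomes, and HFD INPUT and CD INPUT, holding the lysate before the pull-down, with 4 libraries each from pools of 4 mice (2 female and 2 male). The second experiment used cEND, a single mouse brain endothelial line, with the vehicle DMSO or with WZB117, which blocks glucose uptake through Glut1, at doses of 0.5 or 10 µM. Those 3 treatments each had 1 library at passages 12, 14 and 18, so its replicates are passages of 1 line.

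Total counts ran from 27.9 to 42.8 M (1e6 counts) per hypothalamic library and from 27.3 to 41.3 M per cEND library. Levels are given as CPM, counts per 1e6 counts of a library, scaled with TMM factors of all libraries of a table. The labels call the captured cells endothelial. All 15 pan-endothelial markers were detected in HFD IP and in CD IP, with summed levels of 101 to 119 CPM in HFD IP and 90.3 to 139 CPM in CD IP. The 10 astrocyte markers, by contrast, summed to 23291 to 25967 CPM in HFD IP and 25823 to 29278 CPM in CD IP. In cEND libraries the pan-endothelial markers summed to 6288 to 8814 CPM, while the 10 astrocyte markers summed to 146 to 179 CPM and one of them, Gjb6, was at 0 in all 9. Mitochondrially encoded transcripts took 0.053 to 0.079 percent of counts in the IP libraries and 28.1 to 36.2 percent in the INPUT libraries.

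The promoters of 3 members are shown, picked with their levels and their letters known, so the choice is no evidence of a link. Of the members, Agt moved most in the hypothalamus and Ace in the cell line, and each carried a TATA box core. Atp6ap2, present in every library, did not. Each line holds the 250 bases before the transcription start in RefSeq on GRCm38.p6, read 5′ to 3′ on the gene's strand. Agt lies on the minus strand (chr8:124569707-124569956), Ace on the plus strand (chr11:105967698-105967947, the first of 2 listed starts) and Atp6ap2 on the plus strand (chrX:12587509-12587758). Capitals mark TATAAA on either strand in Agt and Ace and, in Atp6ap2, the GC box GGGCGG on either strand.
Agt: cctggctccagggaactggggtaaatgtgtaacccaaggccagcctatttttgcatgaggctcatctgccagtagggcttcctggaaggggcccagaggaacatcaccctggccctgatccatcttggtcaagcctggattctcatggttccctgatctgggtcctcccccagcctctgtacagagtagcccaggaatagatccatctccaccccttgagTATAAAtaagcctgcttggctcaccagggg
Ace: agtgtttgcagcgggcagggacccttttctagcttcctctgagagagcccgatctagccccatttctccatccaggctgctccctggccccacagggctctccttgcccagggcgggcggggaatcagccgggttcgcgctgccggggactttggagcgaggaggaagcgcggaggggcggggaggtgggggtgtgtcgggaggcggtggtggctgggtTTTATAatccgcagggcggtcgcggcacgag
Atp6ap2: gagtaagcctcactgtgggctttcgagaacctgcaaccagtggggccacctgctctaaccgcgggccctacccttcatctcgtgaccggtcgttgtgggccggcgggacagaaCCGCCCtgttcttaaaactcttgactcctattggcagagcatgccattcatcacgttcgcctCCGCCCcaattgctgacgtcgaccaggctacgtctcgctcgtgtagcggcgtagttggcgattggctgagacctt
The TATAAA match began 30 bases before the Agt start and 31 bases before the Ace start, where it lies on the opposite strand. The same letters were in 12.4% of 32851 promoter windows of this length, and GGGCGG was in 32.7%. The Ace window shown also held 4 matches to GGGCGG, Atp6ap2 held 2 and Lnpep 4, while Agt and Enpep held none. The window of the second listed Ace start, not shown, held neither TATAAA nor GGGCGG. Of Enpep, Atp6ap2 and Lnpep, Enpep alone held TATAAA. These are matches of letters in a window and not measured binding, and a link between them and the levels was not tested.

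Agt, the precursor of all angiotensin peptides, was the one member of the 5 fitted that rose on the tagged ribosomes. The gene (ENSMUSG00000031980) spans chromosome 8, 124556534 to 124569706, on the minus strand (GRCm38, GENCODE M21). In IP its level was 213, 230, 168 and 202 CPM in the HFD pools and 253, 306, 317 and 319 CPM in the CD pools. In INPUT it was 21.4, 20.6, 22.9 and 21.9 CPM in the HFD pools and 23.4, 29.2, 31.0 and 29.1 CPM in the CD pools. Every IP library lay above every INPUT library, which held for 30.4% of the genes tested, and every HFD library lay below every CD library of its own fraction. Over both diets Agt rose in IP over INPUT by 3.32 ± 0.07 on the log2 scale (SE, edgeR quasi-likelihood test, adjusted p = 1.53e-20, n = 8 libraries a side). In that comparison 83.7% of the 17592 genes tested were called, 41.6% upwards and 42.1% downwards, so being called alone sets no gene apart. The median of all genes tested was -0.02. All 10 astrocyte markers rose (median 2.89), as did all 15 pan-endothelial markers (median 2.24) and 4 of 5 choroid plexus markers fitted (median 2.42, 1 fell), while all 11 neuronal and all 8 microglial markers fell (medians -1.30 and -3.75). The other marker lists were mixed. Of 8 oligodendrocyte markers 3 rose and 5 fell, and of 11 pericyte and smooth muscle markers 3 rose and 5 fell. Of 5 tanycyte and ependymal markers fitted 3 rose and 1 fell.

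**Figure D1:**
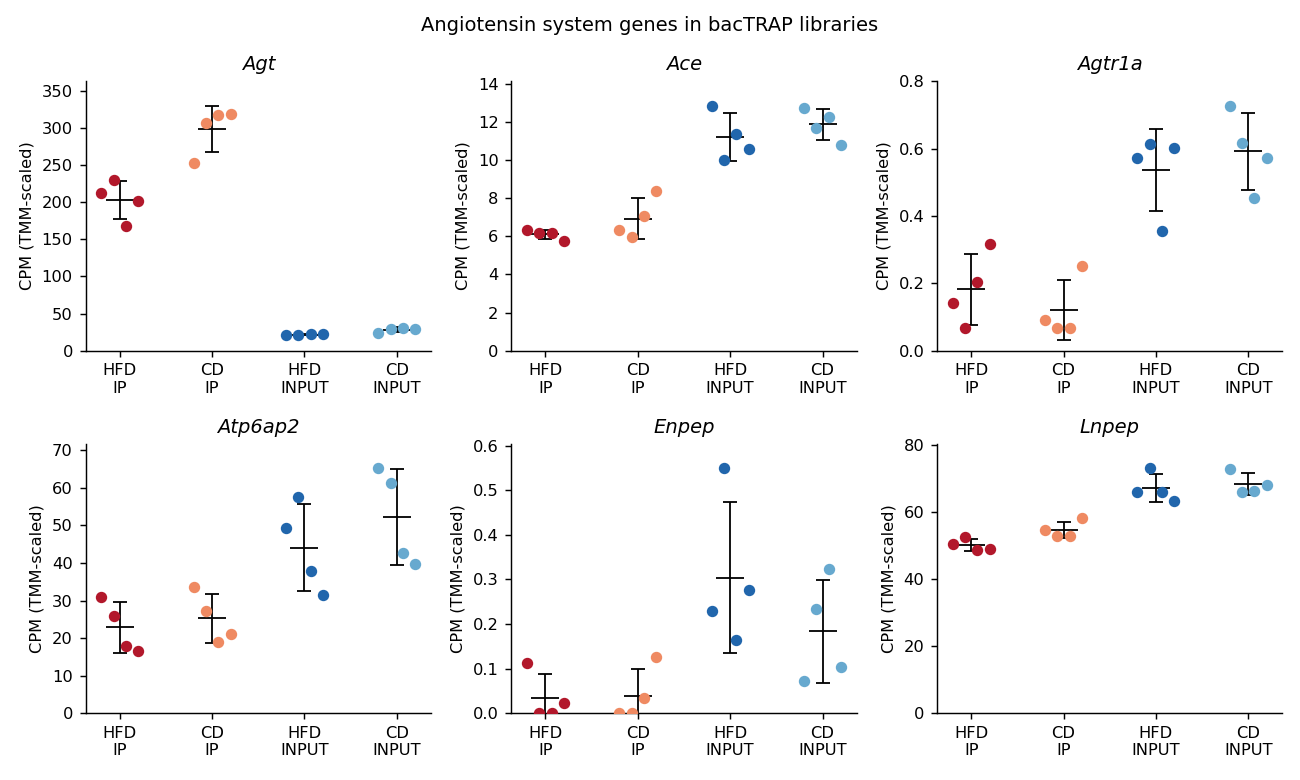
Level of each of the 6 genes in CPM (TMM-scaled) in the 16 bacTRAP libraries. Points are pools in the order of their number, the wide mark is the mean and the bars are the SD of 4 pools. Agt is the gene with its highest points in IP, and Agtr1a and Enpep stay below 1 CPM in every library.

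The level of Agt in IP averaged 203 ± 25.8 CPM in HFD and 299 ± 31.0 CPM in CD (SD, n = 4 pools each), a diet difference of -0.54 ± 0.09 on the log2 scale (SE). This is the difference for which Agt was chosen. Leaving out 1 IP library at a time moved it between -0.61 and -0.46, with the smallest size without the third HFD pool, which was the lowest. In that comparison 0.0883% of 15858 genes were called, and 3.47% had all HFD pools below all CD pools.

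The same contrast in INPUT was not used for the choice, although it comes from the same mice. Agt averaged 21.7 ± 0.974 CPM in HFD INPUT and 28.2 ± 3.32 CPM in CD INPUT, a log2 fold change of -0.38 ± 0.08 (SE, n = 4 pools each). In edgeR's quasi-likelihood test without pool numbers the adjusted p was 0.111, so Agt did not pass there, where 0.0355% of 16879 genes did. With the pool number as a block it was -0.37 ± 0.07 with an adjusted p of 0.0254 (edgeR), and 0.255% of genes were called. Without the first CD pool, the lowest of the CD pools, it was -0.46 with an adjusted p of 0.0269 (edgeR), and over all alternatives the adjusted p ran from 0.000303 to 0.422. The HFD and CD pools did not overlap, which held for 4.54% of the genes tested in INPUT, with HFD the lower for 2.26%. In whole tissue, fewer cells that make a transcript and less transcript per cell cannot be told apart.

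Astrocyte markers, read as a measure of the cells known to make Agt, had smaller diet differences than Agt. The summed astrocyte markers were 3451 to 3871 CPM in HFD INPUT and 3442 to 4227 CPM in CD INPUT, and the ranges of their sums overlapped in IP as well. Of the 10 astrocyte markers 7 had a negative and 3 a positive diet difference in each fraction, with medians of -0.10 in IP and -0.09 in INPUT on the log2 scale, and none passed the test. Relative to 1000 CPM of astrocyte markers, Agt was at 8.84, 8.84, 6.78 and 8.67 CPM in HFD IP and at 9.80, 10.5, 10.8 and 11.0 CPM in CD IP. In INPUT this ratio was 6.09, 5.32, 6.65 and 6.24 in HFD and 6.79, 7.28, 7.44 and 6.88 in CD. HFD pools were below CD pools in both fractions by this measure too. In IP this rests on the Agt values for which the gene was chosen, so it is a description and no further support. The share of other genes with such an order was not computed for this ratio. In INPUT the difference was -1.02, with an exact 2-sided permutation p of 0.0286, the smallest that 70 splits allow. That p is not adjusted, because the exact tests made together held Agtr1a in IP against INPUT, whose direction the filter fixed. The measure was also chosen with the values known. With the pool numbers kept as pairs HFD was lower in 4 of 4, and the exact permutation p was 0.125, the smallest that 16 sign flips allow, so the difference does not pass that way. Pan-endothelial markers went the other way in INPUT, with 12 of 14 fitted having a positive diet difference (median 0.38 on the log2 scale, none passing) and sums of 28.2 to 38.3 CPM in HFD INPUT and 24.8 to 28.1 CPM in CD INPUT, without overlap. In IP 5 of 15 were positive (median -0.06). The part of these markers in the Agt difference was not tested.

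**Figure D2:**
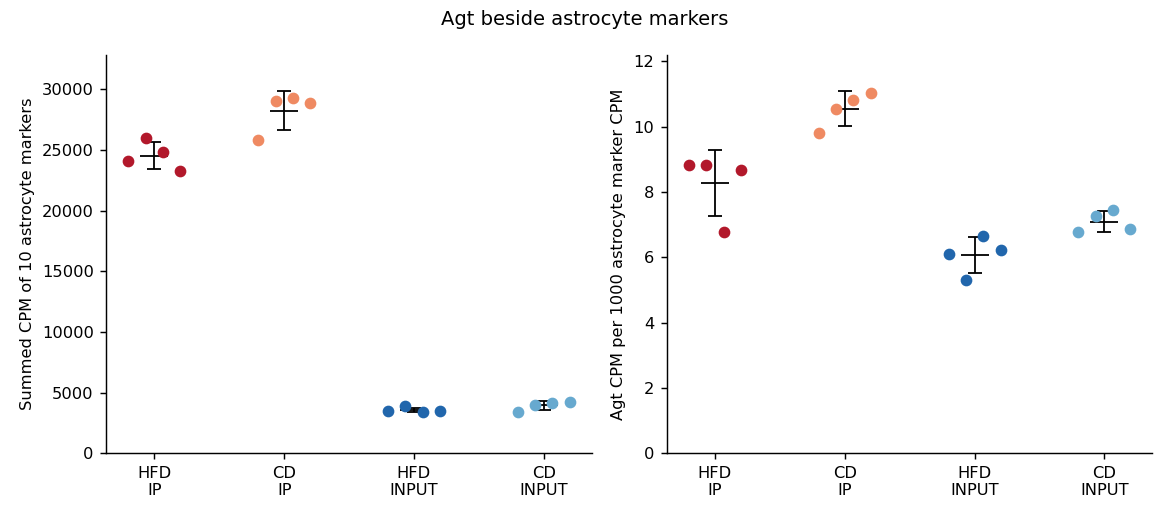
Left, summed CPM of 10 astrocyte markers, and right, Agt CPM per 1000 CPM of those markers, in the 16 bacTRAP libraries. Points are pools, wide marks means and bars SD of 4 pools. On the right the HFD points lie below the CD points of their fraction, the closest being 6.65 in HFD INPUT and 6.79 in CD INPUT.

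The IP level of Agt over its INPUT level in the library of the same number was 9.94, 11.1, 7.34 and 9.24 in the HFD pools and 10.8, 10.5, 10.2 and 11.0 in the CD pools. The third HFD pool was the lowest of these, and the ranges of the diets overlapped.

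Genes that respond to glucocorticoids, hormones known to induce Agt in liver, were measured beside it. Of 12 such genes 11 had a negative diet difference in IP and 11 in INPUT, with medians of -0.40 and -0.22 on the log2 scale against 0.00 for all genes tested in each fraction. None passed the test (edgeR, smallest adjusted p of 0.0805 in IP and 0.0615 in INPUT, both for Plin4, a coat protein of lipid droplets). The mean log2 CPM of the list was 4.82 to 4.97 in HFD IP and 5.01 to 5.41 in CD IP, and the first CD pool was the lowest of the CD pools for this list and for Agt. As summed levels, the measure used for the astrocyte markers, the diets overlapped. The sums were 1996 to 2508 CPM in HFD IP and 1994 to 3089 CPM in CD IP. In INPUT they were 397 to 432 CPM in HFD and 392 to 547 CPM in CD. The pools are labelled as holding both sexes equally. In IP the diet difference was -0.39 ± 0.08 for Ddx3y, -0.42 ± 0.15 for Kdm5d, -0.23 ± 0.11 for Uty and -0.52 ± 0.20 for Eif2s3y, which are Y-linked, and 1.05 ± 0.65 for Xist, which is expressed from the inactive X (SE, edgeR, adjusted p from 0.0556 to 0.59). In INPUT the Y-linked genes were between -0.46 and -0.05 and Xist at 0.05, and none passed. The part of these genes in the Agt difference was not tested.

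The genes whose pattern over the 16 hypothalamic libraries lay nearest to Agt were Cyp2d22, Apoe, Sfrp5, Slc6a11 and Fgfr3. The distance is the root mean square difference of log2 CPM after each gene is centred on its own mean. It was 0.10 for Cyp2d22, a cytochrome P450, and 0.15 for Apoe, the lipid carrier that astrocytes secrete. Sfrp5, a secreted Wnt antagonist, was at 0.16, Slc6a11, a GABA transporter of astrocytes, at 0.17 and Fgfr3, a growth factor receptor, at 0.17, against a median of 1.63 over 12155 genes. Cyp2d22 averaged 72.4 ± 7.62 CPM in HFD IP and 106 ± 12.4 CPM in CD IP. Its INPUT means were 7.99 ± 0.457 CPM in HFD and 11.1 ± 1.19 CPM in CD (SD, n = 4 pools each). Since this distance was taken over libraries of both diets, the diet difference of the named genes is part of their choice.

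The enzymes that make, convert and degrade the peptides followed no common course between fractions. Renin (Ren1), which makes the first cut, had 11 counts over the 4 libraries of HFD IP, 11 in CD IP, 5 in HFD INPUT and 3 in CD INPUT, too few for a fit.

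Ace, the enzyme that forms angiotensin II, was lower on tagged ribosomes than in lysate. The gene (ENSMUSG00000020681) spans chromosome 11, 105967945 to 105989964, on the plus strand. In IP it had 6.31, 6.17, 6.16 and 5.76 CPM in the HFD pools and 6.35, 5.95, 7.05 and 8.38 CPM in the CD pools. In INPUT it had 12.9, 9.98, 11.4 and 10.6 CPM in the HFD pools and 12.7, 11.7, 12.3 and 10.8 CPM in the CD pools. All IP libraries were below all INPUT libraries, as for 29.5% of the genes tested, and the diets overlapped in both fractions. Ace fell by 0.83 on the log2 scale in IP (SE 0.08, edgeR, adjusted p = 2.32e-10). The log2 diet difference was -0.16 ± 0.12 in IP and -0.08 ± 0.09 in INPUT (SE, edgeR, adjusted p = 0.882 in INPUT). Ace shares 295 exon bases with the antisense gene Gm11651, and without knowledge of strand in the counting their reads cannot be told apart.

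Enpep, aminopeptidase A, which removes the first residue of angiotensin II, was near the limit of detection. The gene (ENSMUSG00000028024) spans chromosome 3, 129269175 to 129332720, on the minus strand. It had 4, 0, 0 and 1 counts in the HFD IP libraries, 0, 0, 1 and 4 in CD IP, 6, 17, 6 and 11 in HFD INPUT and 2, 8, 10 and 4 in CD INPUT. Most IP libraries were thus below the INPUT libraries, with overlap at 4 counts or fewer. It passed the filter on low counts in no comparison. Its level averaged 0.21 CPM less in IP than in INPUT (exact 2-sided permutation p = 0.00109 over 12870 splits, not adjusted). These splits did not keep the IP and INPUT libraries of the same pool as pairs, and a paired test was not run. In the fourth CD pool IP was the higher, at 0.126 against 0.104 CPM. Between diets in INPUT the means were 0.304 ± 0.170 CPM in HFD and 0.184 ± 0.116 CPM in CD, with an exact permutation p of 0.314 where 0.0286 is the smallest possible.

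Lnpep encodes the insulin-regulated aminopeptidase, which binds angiotensin IV and degrades vasopressin and oxytocin. The gene (ENSMUSG00000023845) spans chromosome 17, 17521410 to 17625050, on the minus strand. Its level in IP was 50.5, 52.6, 48.7 and 49.1 CPM in HFD pools and 54.7, 53.0, 53.0 and 58.3 CPM in CD pools. In INPUT it was 66.0, 73.2, 66.2 and 63.4 CPM in HFD pools and 73.0, 66.0, 66.5 and 68.1 CPM in CD pools. IP libraries were below INPUT libraries throughout (29.5% of the genes tested), and all HFD IP pools were below all CD IP pools (3.47%), whereas the diets overlapped in INPUT. It fell by 0.37 on the log2 scale in IP against INPUT (SE 0.04, edgeR, adjusted p = 1.23e-08). The log2 diet difference was -0.11 ± 0.06 in IP and -0.03 ± 0.06 in INPUT (SE, edgeR, adjusted p = 0.946 in INPUT).

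Among the receptors, Agtr1a was scarce. The gene (ENSMUSG00000049115) spans chromosome 13, 30336441 to 30382867, on the plus strand. It had 5, 2, 8 and 14 counts in HFD IP, 3, 3, 2 and 8 in CD IP, 15, 19, 13 and 24 in HFD INPUT and 20, 21, 14 and 22 in CD INPUT. It averaged 0.182 ± 0.106 CPM in HFD IP and 0.120 ± 0.0888 CPM in CD IP, and 0.535 ± 0.122 CPM in HFD INPUT and 0.592 ± 0.114 CPM in CD INPUT (SD, n = 4 pools each). In CPM every IP library was below every INPUT library, as for 29.5% of the genes tested. The fitted log2 difference was -1.89 ± 0.32 (SE). Agtr1a passed the filter only through the INPUT libraries and so had to differ, and no test is given. In INPUT the diet difference was -0.14 ± 0.31 (SE, edgeR, adjusted p = 0.944), and in IP it was too low to be fitted. Some reads of Agtr1a may have been counted for the related gene Agtr1b or the reverse, which was not tested. Agtr1b had 0 to 3 counts per hypothalamic library.

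Atp6ap2 encodes the (pro)renin receptor, which is also an accessory subunit of the proton pump of lysosomes. The gene (ENSMUSG00000031007) spans chromosome X, 12587801 to 12617049, on the plus strand. In IP it had 31.0, 25.9, 18.02 and 16.6 CPM in the HFD pools and 33.5, 27.3, 19.1 and 21.2 CPM in the CD pools. In INPUT it had 49.2, 57.5, 38.0 and 31.5 CPM in the HFD pools and 65.2, 61.2, 42.8 and 39.7 CPM in the CD pools. In each of the 4 groups the pools numbered 1 and 2 were above those numbered 3 and 4, which the labels do not explain. Within each diet every IP library was below every INPUT library, while the first CD IP pool was above the fourth HFD INPUT pool. IP was 0.446 to 0.629 times INPUT within each number. It fell by 1.00 on the log2 scale in IP against INPUT (SE 0.19, edgeR, adjusted p = 0.000316). Between diets in INPUT it differed by -0.25 ± 0.26 without and by -0.25 ± 0.06 with the pool number as a block (SE, edgeR, adjusted p = 0.88 and 0.0893). HFD INPUT was below CD INPUT at all 4 numbers. The share of all genes with these orders of Atp6ap2, between fractions, numbers and diets, was not computed. In IP the diet difference was -0.14 ± 0.27 (SE), and 0.029 without the first CD pool.

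**Figure D3:**
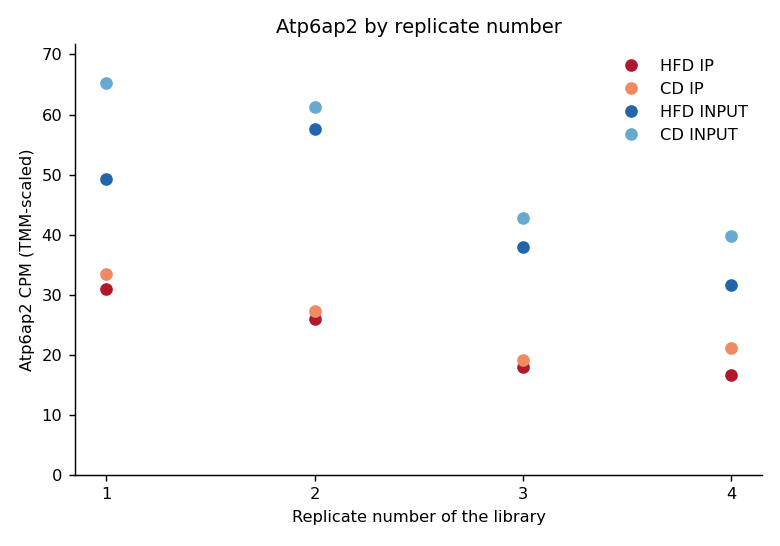
Level of Atp6ap2 in CPM (TMM-scaled) against the number that the labels give each library, with 1 point per library and 1 colour per group. In every group the libraries numbered 1 and 2 are above those numbered 3 and 4, for example 65.2 and 61.2 against 42.8 and 39.7 CPM in CD INPUT.

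Per kilobase of exon, the order of the member means differed between CD IP and CD INPUT only for Agt and Atp6ap2. Those were clearly apart in CD IP but not in CD INPUT. In CD IP the mean level was 158 ± 16.4 CPM per kb for Agt, 9.66 ± 2.49 for Atp6ap2, 3.87 ± 0.175 for Lnpep, 1.31 ± 0.202 for Ace, 0.0430 ± 0.0319 for Agtr1a and 0.00849 ± 0.0126 for Enpep (SD, n = 4 pools). In CD INPUT it was 20.0 ± 4.91 CPM per kb for Atp6ap2, 14.9 ± 1.75 for Agt, 4.84 ± 0.226 for Lnpep, 2.24 ± 0.158 for Ace, 0.212 ± 0.0409 for Agtr1a and 0.0390 ± 0.0247 for Enpep. Atp6ap2 and Agt in CD INPUT, and Agtr1a and Enpep in CD IP, were neighbours whose means differed by less than the sum of their SDs, while the other neighbours were further apart. The patterns nearest to the other members over the 16 libraries were those of Ogt, Mapk8ip3 and Trerf1 for Ace (distances 0.088 to 0.094) and of Map3k2, Zmym2 and Zbtb38 for Lnpep (0.049 to 0.057). For Atp6ap2 they were Lgr5, Sptssb and Sgpp2 (0.224 to 0.237), and for Agtr1a they were Trpv2, Htr1a and Faah (0.274 to 0.294).

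Of 21 further genes of the angiotensin system, 13 passed the filter for IP against INPUT. For Anpep and Mas1 this was only through the INPUT libraries, so that they had to differ and are given without a test. Of the other 11, 4 rose, 3 fell and 4 did not pass the test, with a median of 0.06 on the log2 scale. Among all genes tested 83.7% were called, 41.6% upwards and 42.1% downwards, so these calls do not set the system apart. Agtrap, which binds the type of receptor that Agtr1a encodes and promotes its uptake, rose by 2.03 ± 0.06 (SE), to a mean of 35.7 CPM in HFD IP and 36.0 CPM in CD IP. Nln, a peptidase, rose by 1.12 ± 0.06, Ctsa, a lysosomal carboxypeptidase, by 0.71 ± 0.06 and Atp6ap1, another accessory subunit of the proton pump, by 0.35 ± 0.05. Mme, neprilysin, fell by 1.66 (SE 0.09) and Prcp, a lysosomal carboxypeptidase, by 1.03 (SE 0.09). Agtr2, the other type of angiotensin II receptor, fell by 1.30 (SE 0.22), from at most 35 counts per library. The adjusted p of these 7 genes was 8.12e-06 or lower (edgeR). Those that did not pass were Prep (0.14 ± 0.07), Thop1 (0.06 ± 0.07), Rnpep (0.06 ± 0.08) and Dpp3 (-0.16 ± 0.07), all peptidases. The fitted differences were -2.80 ± 0.29 for Anpep, aminopeptidase N, and -4.11 ± 0.58 for Mas1, a receptor for shorter angiotensins (SE), with 0 to 2 counts of Mas1 per IP library.

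**Figure D4:**
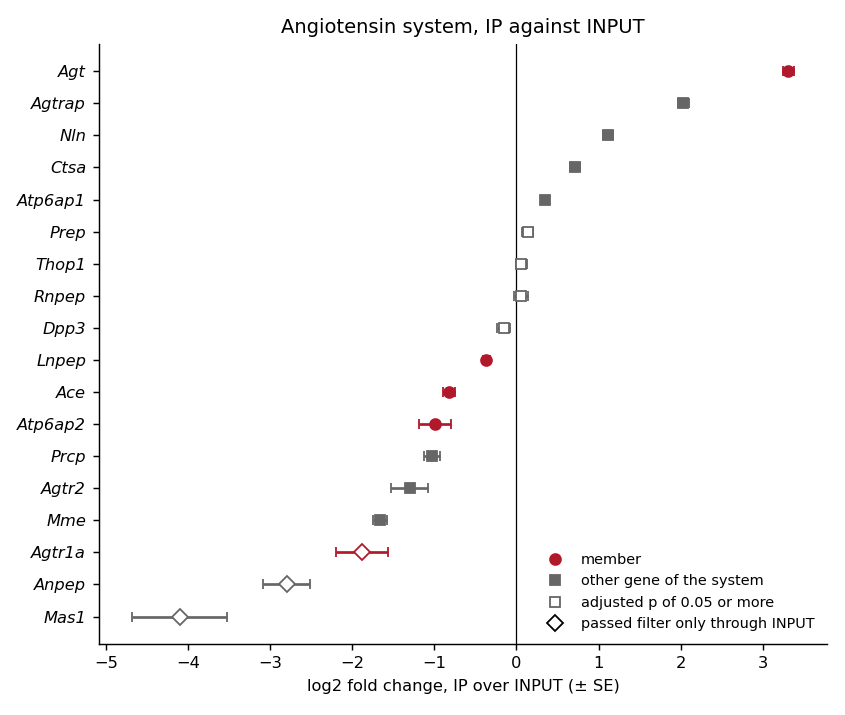
Log2 fold change of IP over INPUT with its SE for the 5 members and 13 further genes of the angiotensin system that passed the filter, ordered by size. Filled symbols passed an adjusted p of 0.05, and diamonds mark Agtr1a, Anpep and Mas1, which passed the filter only through INPUT and are drawn without a call. Agt (3.32) is the highest, and Enpep is not drawn because it was not fitted.

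None of these further genes passed the test between diets, of 11 fitted in IP and 13 in INPUT. The smallest adjusted p was 0.481 in IP, for Mme (0.28 ± 0.15), and 0.601 in INPUT, for Ctsa (-0.16 ± 0.06, edgeR). At an unadjusted p under 0.05 there were 0 in IP and 1 in INPUT. Atp6ap1, the most abundant of them, differed by -0.13 ± 0.07 in IP and by -0.06 ± 0.06 in INPUT.

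cEND cells held a smaller set of the system. Agt had 0 to 3 counts in each of the 9 libraries, and Agtr1a and Enpep had 0 in all 9, which allows a level of up to 0.0731 to 0.106 CPM depending on the library (3 counts, counting error only). Agtr1b had 0 to 23 counts per library. Ren1 had 2 counts in 1 library and 0 in the others.

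Ace in cEND cells differed between passages. At passages 12, 14 and 18 it had 5.85, 10.3 and 19.0 CPM with DMSO, 6.46, 12.1 and 22.6 CPM with 0.5 µM WZB117 and 6.47, 10.0 and 20.1 CPM with 10 µM WZB117. The 3 libraries of each passage lay together and no passage overlapped another, whatever the treatment. The share of all genes with such an order was not computed, so it does not set Ace apart. The passage means were 6.26 ± 0.353, 10.8 ± 1.16 and 20.5 ± 1.84 CPM (SD, n = 3 libraries each). Passage 18 exceeded passage 12 by 1.71 ± 0.10 on the log2 scale (SE, edgeR, adjusted p = 8.36e-13), in a comparison where 35.1% of 15466 genes were called. The 3 libraries of a passage share 1 culture, so this p measures the spread within cultures only, and passage cannot be told apart from any other feature of those cultures. Endothelial markers moved with it, 14 of 15 being called higher at passage 18 with a median of 0.36 on the log2 scale. Relative to 1000 CPM of the 15 endothelial markers, Ace was at 0.973 ± 0.0401, 1.60 ± 0.146 and 2.37 ± 0.173 CPM at passages 12, 14 and 18 (SD, n = 3 libraries each).

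Differences of Ace between treatments were smaller than its spread between passages. The log2 fold change was 0.05 ± 0.56 for 10 µM against DMSO, 0.23 ± 0.56 for 0.5 µM against DMSO and -0.17 ± 0.56 for 10 against 0.5 µM (SE, edgeR, adjusted p from 0.972 to 1). With the passage as a block the values were 0.06 ± 0.10, 0.22 ± 0.10 and -0.16 ± 0.10, and the adjusted p was 0.755, 0.999 and 0.33 (edgeR). The level at 0.5 µM was above that of DMSO at all 3 passages, an order whose share over all genes was not computed.

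Lnpep was higher with 10 µM WZB117 at each passage. At passages 12, 14 and 18 it had 78.5, 95.3 and 90.0 CPM with DMSO, 69.4, 90.0 and 97.8 CPM with 0.5 µM and 96.9, 106 and 109 CPM with 10 µM. All 10 µM libraries lay above all DMSO libraries, while those at 0.5 µM overlapped with both other treatments. Against DMSO the 10 µM difference was 0.24 ± 0.13 without the passage and 0.24 ± 0.07 with it as a block (SE, edgeR, adjusted p = 0.598 and 0.00992). Against 0.5 µM it was 0.28 ± 0.13 and 0.29 ± 0.07 (SE, edgeR, adjusted p = 0.51 and 0.00268). The block called 18.5% and 17.8% of all genes in these comparisons, against 1.27% in each without it. For 0.5 µM against DMSO the difference was -0.04 ± 0.13 (SE, edgeR, adjusted p = 1), and no gene was called with or without the block, while 55 had an unadjusted p under 0.05 without it. The 10 µM and DMSO libraries did not overlap for 15.6% of genes, with 10 µM the higher for 8.41%. Between passages 18 and 12, where 35.1% of genes were called, Lnpep differed by 0.28 ± 0.07 (SE, edgeR, adjusted p = 0.00136). That p measures the spread within cultures only.

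Atp6ap2 stayed within a narrow range in cEND cells. At passages 12, 14 and 18 it had 72.2, 73.5 and 66.8 CPM with DMSO, 67.6, 69.9 and 71.0 CPM with 0.5 µM and 78.7, 75.8 and 65.4 CPM with 10 µM. The 3 treatments overlapped. The difference from DMSO was 0.05 ± 0.09 at 10 µM and -0.03 ± 0.09 at 0.5 µM, and that between 10 and 0.5 µM was 0.08 ± 0.09 (SE, edgeR, adjusted p from 0.879 to 1). Between passages 18 and 12 it was -0.10 ± 0.07 (SE, edgeR, adjusted p = 0.254).

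**Figure D5:**
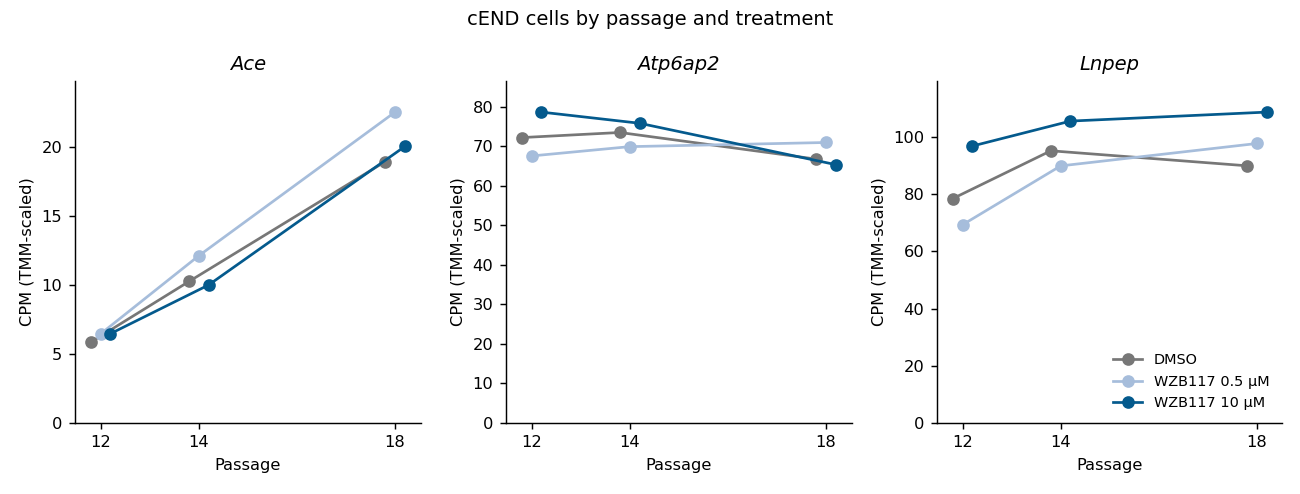
Level of Ace, Atp6ap2 and Lnpep in CPM (TMM-scaled) in the 9 cEND libraries against passage, with 1 point per library and a line per treatment, shifted sideways for sight. Ace is near 6 CPM at passage 12 and at 19.0 to 22.6 CPM at passage 18 in all treatments, and the 10 µM line of Lnpep is above both others at each passage.

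Of the 21 further genes of the system 9 were fitted in cEND cells. None passed for either dose against DMSO or between doses. With the passage as a block 1 did, Thop1, a peptidase that acts on angiotensin I. It was at -0.25 ± 0.07 for 10 µM against DMSO (SE, edgeR, adjusted p = 0.0144), where the block called 18.5% of all genes. Between passages 18 and 12, where 35.1% of genes were called, 2 rose and 3 fell (edgeR, adjusted p of 0.00791 or lower). As for Ace, the p of comparisons between passages measures the spread within cultures only. Prcp rose by 0.38 ± 0.06 and Ctsa by 0.28 ± 0.06, while Nln fell by 0.68 (SE 0.07), Prep by 0.46 (SE 0.07) and Thop1 by 0.25 (SE 0.07). At passage 14 against the mean of passages 12 and 18, where 25.0% of genes were called, 3 rose and 1 fell. Prcp was lower by -0.69 ± 0.06, with means of 87.8, 62.0 and 115 CPM at passages 12, 14 and 18, while Thop1 rose by 0.31 ± 0.06, Prep by 0.26 ± 0.06 and Rnpep by 0.15 ± 0.06 (adjusted p of 0.0493 or lower). In the same comparison Ace differed by -0.07 ± 0.09, Lnpep by 0.11 ± 0.06 and Atp6ap2 by 0.06 ± 0.06 (SE, edgeR, adjusted p = 0.617, 0.156 and 0.535).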

How the data were processed

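RNA was sequenced from hypothalamic lysate and tagged ribosomes (16 libraries) and from cEND cells (9 libraries). The deposited values were estimated counts per Ensembl gene, not scaled to a common total. Per the submitters' processing notes the build was GRCm38, and the counting program, strand setting and annotation release are not given in the sources used here. Estimated counts were rounded. Symbols and coordinates came from GENCODE M21, promoters from RefSeq (5 of 6 members matched). The counts were scaled with TMM, filtered with filterByExpr (minimum count 10) and fitted with edgeR 4.0.16 in R 4.3.3 (quasi-likelihood, robust), with Benjamini-Hochberg adjustment over all genes fitted and a threshold of 0.05. The SE is the log2 fold change divided by the square root of F. All tests were 2-sided. IP was compared with INPUT in 16 libraries, diets within 8 libraries of a fraction, and treatments or passages in 9 libraries. Nothing in the labels says more than that bacTRAP replicates are separate pools.

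Members and gene lists were chosen with earlier results of these data known. All 6 members were named in every comparison. Of 21 further genes, those that passed the test and up to 4 more of high level were named, and for likeness the 5 genes nearest to Agt and 3 nearest to each other member (average log2 CPM of at least 1, placeholder symbols left out). No replicate was a copy of another (lowest chi-square per degree of freedom 9.08). Libraries of the same passage deviated together from their group means (correlations 0.593 to 0.825), and so, weakly, did HFD and CD INPUT pools of the same number (0.104 to 0.204), so blocked values stand beside those results. The fourth HFD INPUT pool did not correlate best with the CD INPUT pool of its own number. Alternatives were DESeq2 1.42.0, RLE factors, no filter, all 16 libraries in 1 fit, ribosomal and mitochondrial RNA left out, the block, and each library left out. The fits were tested on simulated data with independent libraries, so that test did not cover libraries that share a pool or a passage. No column was left out. One further gene of the system is not reported here by name.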

Additional observations from a re-analysis of the deposited data

Results flagged for a closer look

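In 24 sets of 4 libraries (6 genes in 4 bacTRAP groups), 2 held a library far from the other 3, and chance alone gives about 1 in 20. Agtr1a had 0.252 CPM in the fourth CD IP library, which lay above the other 3. Agtr1a had 0.355 CPM in the third HFD INPUT library, below the other 3 of its group. Both values rest on few counts, 8 and 13 in these libraries.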

How the results depend on the processing

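Of 302 recalculations of a tested member difference under another setting, 284 kept direction and side of the threshold, 6 passed where the reported fit had not, 12 turned sign and 0 lost a call. A further 52, of the diet differences in IP, have no test, and of them 1 turned sign (Atp6ap2, -0.32 to 0.029 with 1 library left out, positive without the first CD pool). The 21 of Agtr1a in IP against INPUT are left out, since the filter fixed its direction. The 12 were all in differences that had not passed, with 1 library left out, and those ranges were -0.51 to 0.60 (Ace, 10 µM against DMSO), -0.34 to 0.77 (Ace, 0.5 µM against DMSO), -0.74 to 0.39 (Ace, 10 against 0.5 µM), -0.0054 to 0.12 (Atp6ap2, 10 µM against DMSO), -0.15 to 0.10 (Lnpep, 0.5 µM against DMSO), -0.069 to 0.0039 (Lnpep, diets in INPUT) and -0.25 to 0.0123 (Agtr1a, diets in INPUT). The 6 were Agt between diets in INPUT (-0.38 with DESeq2, adjusted p = 0.0185, -0.37 without a filter, adjusted p = 0.000303, -0.37 with the replicate block, and -0.46 without the first CD pool) and Lnpep at 10 µM with the block (0.24 against DMSO, 0.29 against 0.5 µM).

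Counts of called genes moved more. Between diets in INPUT 6 genes became 47 with DESeq2, 116 without a filter, 43 with the replicate block, 2 in a fit of 16 libraries and 2 to 17 without 1 library. In IP 14 became 183, 398, 52 and 121 in the same order and 5 to 50 without 1 library. The block there (33 up, 19 down, against 6 up and 8 down) pairs libraries that share only a number (correlations 0.018 to 0.092). For 10 µM against DMSO 197 became 493 with DESeq2, 2864 with the block and 38 to 171 without 1 library, and for 10 against 0.5 µM 197 became 485, 2759 and 33 to 152. At passage 14, 3861 became 2446 to 3880. The cause was not tested. IP and INPUT libraries of the same number correlated at 0.026 to 0.269, each best with its own number, and the block gave 14824 genes against 14724 and changed no member's call. The flips within pool numbers for Agt per astrocyte markers (-1.02, exact p = 0.125) were added after the data were seen. Levels under 1 CPM (Agtr1a, Enpep) are limited by depth.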
